A study of Homo sapiens with 6 samples.

Results

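The genes described here encode the proteins of the mitochondrial ribosome and carry the names MRPL and MRPS (MRP genes). They were taken as the protein-coding rows of the deposited gene table whose name starts with MRPL or MRPS followed by a digit, which gave 78 of 58735 rows. Of these, 49 are named MRPL and 29 MRPS, and they lie on 21 chromosomes. The samples were RNA-seq libraries of MDA-MB-231, an established human triple-negative breast cancer cell line with the genotype labelled WT. All cells were stained with PKH26, a membrane dye that is diluted at each division, and then grown for 12 days without further dye. The brightest 1% were sorted as slow-cycling cells (SCC), and a dimmer fraction was sorted as rapid-cycling cells (RCC). The protocol text calls the dye content of the RCC fraction moderate, whereas the sample characteristics call it low. There were 3 biological replicates of each group, with 17655855 to 27831824 counts per library. By the labels, both groups come from a single cell line and differ in the sort gate. The p-values measure the spread between these 6 libraries.

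The mitochondrial ribosome translates the few respiratory chain proteins that are still encoded by mitochondrial DNA. Its small subunit decodes the messenger RNA and its large subunit joins the amino acids. The ribosomal RNAs of both subunits are transcribed inside the organelle, while every ribosomal protein is encoded in the nucleus, made in the cytosol and imported. Some of these proteins descend from the bacterial ribosome and others were added in mitochondria. The names do not fully match the subunits: the products of MRPS30 and MRPS18A sit in the large subunit, and that of MRPS36 is a component of the 2-oxoglutarate dehydrogenase complex. By these roles 26 members belong to the small subunit, 51 to the large subunit and 1, MRPS36, to neither.

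No MRP gene passed the reported test, in either direction. The genes were slightly lower in SCC as a group: 61 of the 78 had a fitted log2 fold change (SCC over RCC) below 0, which is 78.2% against 49.5% of all tested genes. The median was -0.10, which is 93.3% of the RCC level, and the median of all tested genes was 0.00. In edgeR's quasi-likelihood test with Benjamini-Hochberg adjustment over the 15881 tested genes, 0 members were called at an adjusted p under 0.05, where 2.07% of all tested genes were called, 1.69% as higher and 0.378% as lower. All 78 members passed the filter on low counts. At an unadjusted p under 0.05, 14 members were lower and 1 was higher, where 8.27% and 11.4% of all tested genes were. DESeq2 called 1 member lower, MRPS25, where it called 1.07% of all tested genes lower.

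The differences were small against what the libraries resolve for a single gene. In 69 members the absolute log2 fold change was under 0.25, and the standard error of a member's fold change had a median of 0.090 and a range of 0.068 to 0.377. The SD of log2 values between replicates had a median of 0.113 over the members and 0.155 over all tested genes. The lowest fold change was -0.36, for MRPS25, and the highest 0.55, for MRPS24. In 24 members (30.8%) every SCC library was below every RCC library, and in 4 members (5.13%) every SCC library was above. Over all tested genes these shares were 13.4% and 14.4%. In bulk samples, fewer cells that express a gene and less of its RNA in each cell cannot be told apart.

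**Figure D1:**
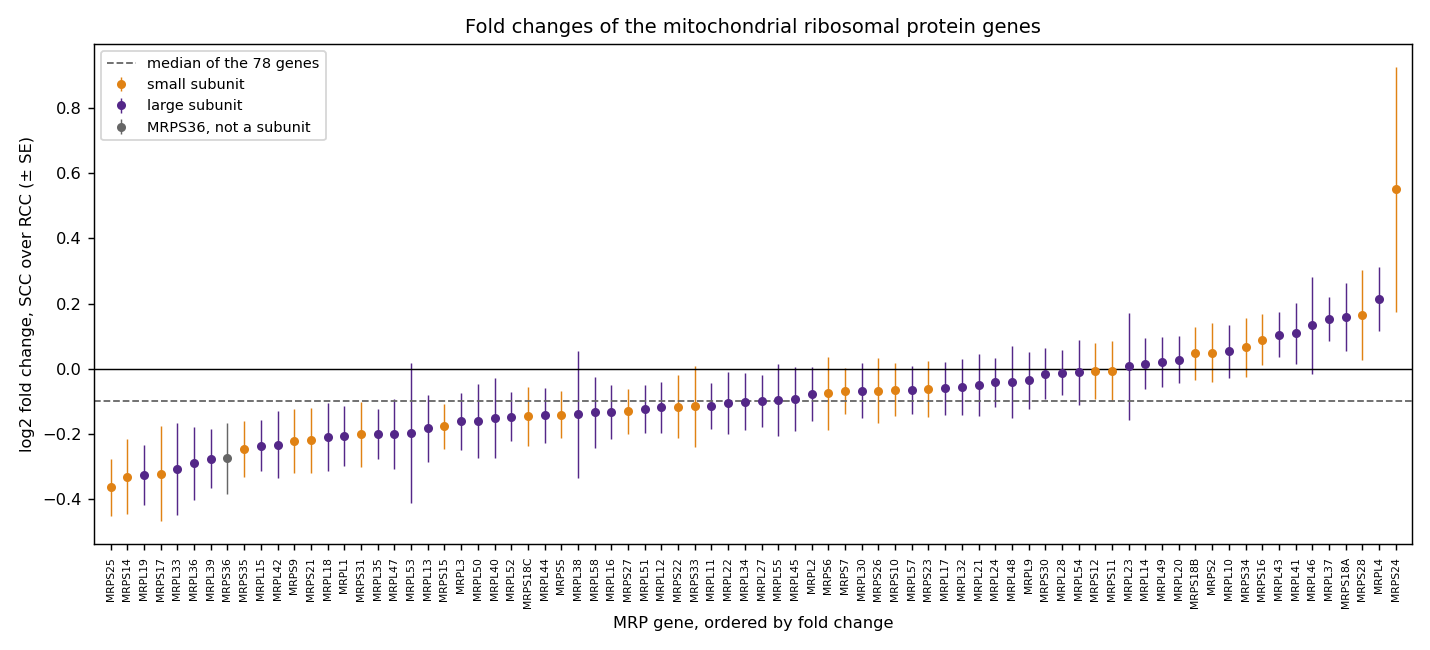
Fitted log2 fold change, SCC over RCC, of each of the 78 MRP genes (vertical axis, log2 scale, points with SE), ordered from the lowest, MRPS25 at -0.36, to the highest, MRPS24 at 0.55. Colours mark the small subunit, the large subunit and MRPS36, the solid line is 0, the dashed line is the median of -0.10, and 61 genes lie below 0.

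The promoters of the members carry short letters known as binding sites of factors that control nuclear genes of mitochondrial proteins. RefSeq start sites on GRCh38.p14 were available for 69 of the 78 members, in a window from 250 bases before to 50 bases after the start, and each motif was searched on both strands. The letters AANATGGCG, the core of the YY1 site, occurred in 18 of the 69 windows (26.1%), against 5.71% of the 15487 windows of tested genes and 3.19% of all 35116 windows. In 16 members (23.2%) the match lay after the start, against 3.47% of tested genes. The ATG inside the match was the annotated start codon in 14 of these 16, so that there the letters and the first codons overlap. MRPS14 and MRPS24, with the second lowest and the highest fold change, are shown because they carry the same letters at the start codon, as do MRPS18A, MRPS18B and MRPS30. MRPL37 has its match at an ATG that is not annotated as a start codon. Each line gives 30 bases from 5′ to 3′ on the gene's strand, with the match in capitals.
MRPS14: tgtagcggacAACATGGCGgccttcatgct
MRPS24: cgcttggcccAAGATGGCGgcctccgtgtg
MRPS18A: taggtttttgAAGATGGCGgccctcaaggc
MRPS18B: ggcgtacgtcAAGATGGCGgcgtctgtatt
MRPS30: atcgcgggcaAAGATGGCGgcggccaggtg
MRPL37: cctgcgcgcggcAACATGGCGgggtccagg
These lie at chr1:175023392-175023421 (minus strand), chr7:43869479-43869508 (minus), chr6:43687763-43687792 (minus), chr6:30617853-30617882 (plus), chr5:44808950-44808979 (plus) and chr1:54200187-54200216 (plus), in the order of the lines. The median log2 fold change was -0.09 over the 18 members with the letters and -0.10 over the 51 without.

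The ETS core CCGGAAGT, bound by GABPA and related factors, occurred in 11 members (15.9%, against 7.10% of tested genes), and the NRF1 letters, GCGCA and GCGC with any base between, in 8 members (11.6%, against 9.47%). Matches are shown for MRPS34, MRPL51 and MRPL3, which are 3 of the 5 most abundant members, and for MRPL36, the NRF1 match with the lowest fold change. The capitals are the reverse complement of the ETS letters in the lines of MRPS34 and MRPL51, and of the NRF1 letters in that of MRPL36.
MRPS34: ctcttccggtgACTTCCGGccggaccgctg
MRPL51: ggcgctccaaaACTTCCGGcaggcggaccg
MRPL3: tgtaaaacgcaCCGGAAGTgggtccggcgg
MRPL36: tcgcactccaGCGCCTGCGCactcgctgct
They lie before the start, at chr16:1773136-1773165, chr12:6493364-6493393, chr3:131502985-131503014 and chr5:1799928-1799957, all on the minus strand. Median log2 fold changes were -0.13 with and -0.08 without the ETS letters, and -0.08 with and -0.11 without the NRF1 letters. The SP1 letters GGGCGG occurred in 60.9% of the members and 64.9% of tested genes, the E-box CACGTG in 8.70% and 9.13%, and TATAAA in 2.90% and 6.50%. The study's title names AP-1. Its letters TGANTCA occurred in the window of 1 member, MRPS35 (1.45%, against 5.57% of tested genes). The related TGACGTCA occurred in 0 members, against 2.67% of tested genes. A match describes letters in this window and is not a measured binding site.

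Levels per gene length, as deposited FPKM averaged over the 6 libraries, spanned a wide range. The median member stood at 20.1 FPKM, 59 members were above 10 FPKM and 1 was below 1. The 5 highest were MRPS34 at 93.8, MRPL51 at 93.0, MRPL41 at 63.6, MRPL37 at 55.1 and MRPL3 at 54.3 FPKM. MRPS34 was at 106, 87.5 and 93.1 FPKM in SCC and 86.0, 89.9 and 100.03 in RCC. MRPL51 was at 81.1, 94.1 and 91.3 in SCC and 93.8, 102 and 96 in RCC. The values of these 2 genes overlapped, so their order does not exceed the spread between libraries. MRPL41, next in order, was at 74.2, 59.1 and 64.1 FPKM in SCC and 57.4, 62.2 and 64.7 in RCC, and all 6 values were below those of the first pair. The ranges of MRPL41, MRPL37 and MRPL3 overlapped one after the other. Small subunit members had a median of 11.8 FPKM and large subunit members of 22.0.

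The 5 lowest members were MRPS24 at 0.255, MRPL38 at 1.04, MRPL46 at 1.90, MRPL53 at 1.92 and MRPS17 at 3.27 FPKM. Each of them shares exon bases on its own strand with another annotated gene, from 11.3% of the bases of MRPL46 to 45.2% of those of MRPL53. Over the members, 16 share exon bases with a gene on the same strand and had a median of 8.65 FPKM, against 21.1 FPKM for the others. MRPS24 shares 23.2% of its bases with the readthrough gene URGCP-MRPS24, which was listed at 0 counts in 5 libraries and at 1 count in RCC replicate 1. The table also lists 75 MRP pseudogenes, of which 4 passed the filter, and reads shared with such copies cannot be told apart. MRPL12 shares 68.2% of its bases and stood at 37.9 FPKM. How the counting treated shared bases is not given in the sources used here, and its part in these levels was not tested.

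Among genes of the small subunit, MRPS25, MRPS14 and MRPS17 had the lowest fold changes. MRPS25 (ENSG00000131368, chromosome 3, 15042460 to 15065335 on GRCh38), a protein found only in mitochondrial ribosomes, was at 50.8, 60.5 and 55.1 CPM (counts scaled to the same depth with TMM) in SCC replicates 1 to 3. In RCC it was at 66.4, 70.8 and 76.9 CPM. All SCC libraries were below all RCC libraries, and the means were 55.5 ± 4.84 and 71.4 ± 5.27 (SD, n = 3). Its log2 fold change was -0.36 ± 0.09 (SE), with an adjusted p of 0.063 in edgeR's quasi-likelihood test, the lowest of any member, and 0.017 in DESeq2.

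MRPS14 (chromosome 1, 175010789 to 175023425), which has a bacterial homologue, was at 14.5, 17.7 and 17.1 CPM in SCC and 18.6, 20.9 and 22.4 in RCC. The groups did not overlap, and the log2 fold change was -0.33 ± 0.11 with an adjusted p of 0.160 (edgeR). MRPS17, another protein of bacterial descent, was at 6.60, 5.78 and 6.50 CPM in SCC and 6.69, 8.46 and 8.56 in RCC. Its groups were separated by a narrow margin, and its log2 fold change of -0.32 ± 0.15 had an adjusted p of 0.255 (edgeR). MRPS35 and MRPS15, named after their values were seen, were also below RCC in all SCC libraries, with log2 fold changes of -0.25 and -0.18.

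Of the small subunit genes with known roles, MRPS22, in which inherited mutations cause mitochondrial disease, had a log2 fold change of -0.12, and MRPS27, a pentatricopeptide repeat protein, -0.13 (-0.05 and -0.15 without SCC replicate 1). MRPS16, another disease gene, was at 113, 108 and 99.5 CPM in SCC and 93.9, 107 and 101 in RCC. Its groups overlapped and its log2 fold change was 0.09. MRPS12, the decoding-centre protein, had a fold change of -0.01, and 0.03 without RCC replicate 3. MRPS28 had 0.16 ± 0.14.

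The abundant MRPS34 was at 118, 96.4 and 102 CPM in SCC and 95.1, 98.2 and 110 in RCC, with overlapping groups and a log2 fold change of 0.07, which was -0.02 without SCC replicate 1. MRPS24, the highest fold change of the family at 0.55 ± 0.38 (SE), was at 0.74, 0.72 and 0.95 CPM in SCC and 0.70, 0.53 and 0.39 in RCC. The groups did not overlap, but these values rest on 7 to 20 counts per library and the adjusted p was 0.425 (edgeR). Over the small subunit as a whole, 20 of 26 members were below 0, and the median was -0.10. In 11 (42.3%) all SCC libraries were below all RCC libraries and in 1 (3.85%) all were above, where the shares over all tested genes were 13.4% and 14.4%.

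**Figure D2:**
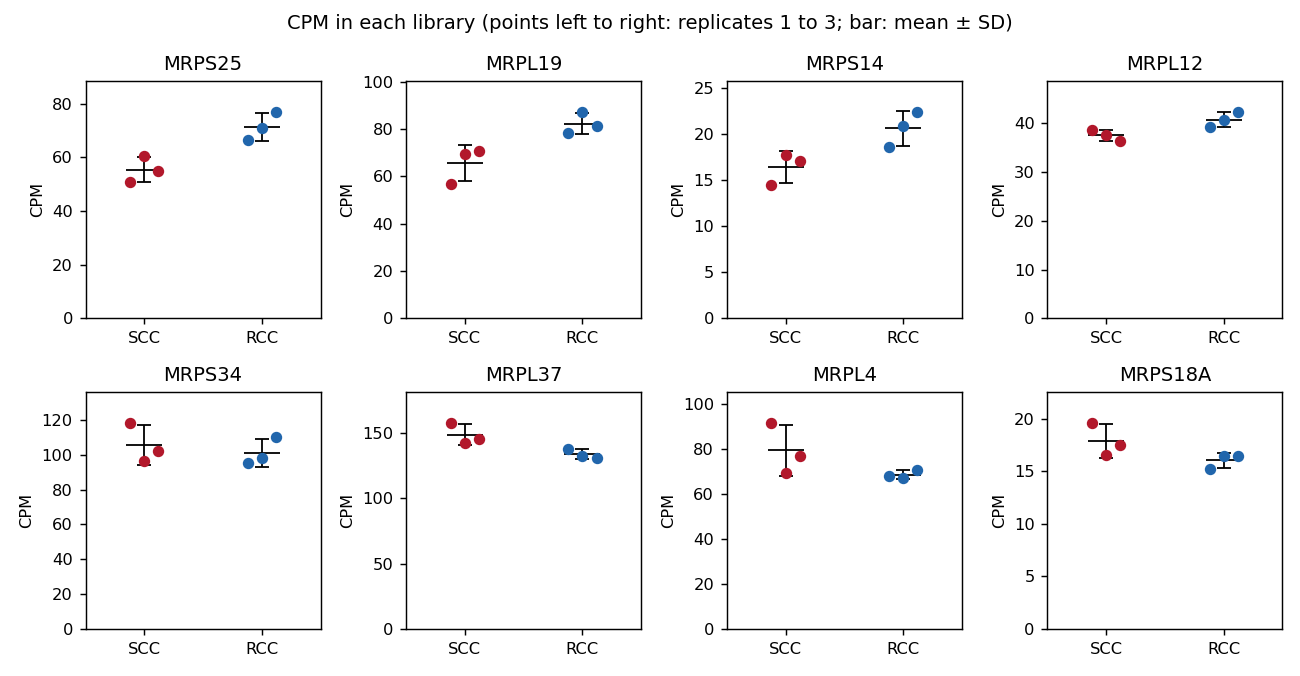
CPM (counts scaled to the same depth with TMM, vertical axes from 0) of 8 MRP genes in each library, with points for SCC and RCC replicates 1 to 3 from left to right and bars for the mean ± SD (n = 3). The groups do not overlap in MRPS25, MRPL19, MRPS14, MRPL12, MRPL37 and MRPS18A, and they overlap in MRPS34 and MRPL4.

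The MRPS18 genes are 3 paralogues, with the product of MRPS18A in the large subunit and those of MRPS18B and MRPS18C in the small. MRPS18C is counted here with the bacterial homologues and the other pair as mitochondrial only. MRPS18C had a log2 fold change of -0.15 ± 0.09 and MRPS18B of 0.05 ± 0.08, the latter -0.01 without SCC replicate 1. MRPS18A was at 19.6, 16.6 and 17.5 CPM in SCC and 15.2, 16.49 and 16.4 in RCC. All SCC libraries were higher, by less than 0.1 CPM at the closest pair, and the log2 fold change of 0.16 ± 0.10 had an adjusted p of 0.406 (edgeR). It was 0.03 with the GC offset and 0.09 without SCC replicate 1. Differences between the 3 paralogues were not tested.

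In the large subunit, MRPL19 (chromosome 2, 75646783 to 75690851), which has a bacterial homologue, had the lowest fold change. It was at 56.9, 69.4 and 70.9 CPM in SCC and 78.5, 87.3 and 81.2 in RCC, with no overlap, and its log2 fold change was -0.33 ± 0.09 with an adjusted p of 0.101 (edgeR). Without SCC replicate 1 the fold change was -0.23 and the adjusted p 0.019. MRPL33, a small protein of bacterial descent, was at 28.5, 43.2 and 40.1 CPM in SCC and 41.3, 46.4 and 50.5 in RCC. SCC replicate 1 was far below the RCC range, SCC replicate 3 just below it and SCC replicate 2 within it. The fold change of -0.31 ± 0.14 was -0.14 without SCC replicate 1. MRPL39, named after its values were seen, was below RCC in all SCC libraries, with a log2 fold change of -0.28.

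The large subunit proteins with known working roles given next had fold changes nearer to 0 than MRPL19, MRPL33 and MRPL39. All of them still lay below the subunit's median of -0.10. MRPL3, which reaches towards the peptidyl transferase centre, was at 124, 154 and 141 CPM in SCC and 149, 168 and 152 in RCC, a log2 fold change of -0.16 that was -0.08 without SCC replicate 1. MRPL11, at the base of the stalk that binds translation factors, had -0.11. MRPL12, the stalk protein itself, which also binds the mitochondrial RNA polymerase, was at 38.6, 37.6 and 36.4 CPM in SCC and 39.3, 40.7 and 42.3 in RCC. The groups of MRPL12 did not overlap, but its log2 fold change of -0.12 ± 0.08 had an adjusted p of 0.402 (edgeR). MRPL44, of the ribonuclease III family, had -0.14, and MRPL58, a peptidyl-tRNA hydrolase built into the subunit, -0.13 (-0.08 and -0.03 without SCC replicate 1). MRPL51 had -0.12 and the low-abundance MRPL38 and MRPL53 had -0.14 ± 0.19 and -0.20 ± 0.22.

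A few large subunit genes lay above 0. MRPL37 was at 158, 143 and 145 CPM in SCC and 138, 132 and 131 in RCC. All SCC values were higher, the log2 fold change was 0.15 ± 0.07, and the adjusted p was 0.246 (edgeR). MRPL4 was at 91.9, 69.6 and 77.1 CPM in SCC and 68.0, 67.2 and 70.9 in RCC. SCC replicate 1 was the highest and SCC replicate 2 lay within the RCC range. The fold change of 0.21 ± 0.10 was 0.10 without SCC replicate 1. MRPL43, named after its values were seen, had 0.10 with no overlap, MRPL41 0.11 and MRPL46 0.13 ± 0.15, the last 2 being 0.01 and 0.00 without SCC replicate 1. MRPS30, a large subunit protein despite its name, had -0.02, and 0.05 without SCC replicate 1. Over the large subunit 40 of 51 members were below 0, and the median was -0.10. In 12 (23.5%) all SCC libraries were below all RCC libraries and in 3 (5.88%) all were above, against the same 13.4% and 14.4% of all tested genes.

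By the grouping used here, the 46 members counted with the bacterial homologues had a median log2 fold change of -0.10. The 31 counted as mitochondrial only, among them MRPS18A and MRPS18B, had -0.12. Without SCC replicate 1 these medians were -0.08 and -0.04, and with an offset for GC content -0.12 and -0.10, so their order turned in both. MRPS36, of the 2-oxoglutarate dehydrogenase complex, was at 18.4, 24.0 and 22.6 CPM in SCC and 26.5, 25.6 and 26.4 in RCC. Its log2 fold change of -0.28 ± 0.11 (adjusted p 0.204, edgeR) was among the lower ones of the list although its product is no ribosomal subunit. It was -0.11 with the GC offset and -0.17 without SCC replicate 1.

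Summed over the 78 genes, MRP transcripts were at 4052, 4284.5 and 4284.4 CPM in SCC and 4348, 4549 and 4465 CPM in RCC. Every SCC library was below every RCC library. The means were 4207 ± 134 and 4454 ± 101 CPM (SD, n = 3), so SCC was at 94.5% of RCC. As shares of all counts these are 0.416% ± 0.0207 in SCC and 0.449% ± 0.0078 in RCC. The small subunit genes summed to 1333 ± 12.6 CPM in SCC and 1409 ± 39.9 in RCC, and the large subunit genes to 2853 ± 119 and 3018 ± 64.9. SCC replicate 1 held the lowest sum. It was the lowest of all 6 libraries in 43 of the 78 members, and without it the median log2 fold change of the members was -0.06, with 52 of 78 below 0, against 50.3% of all tested genes.

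The fold changes of the members followed the GC content of their transcripts, as did those of all genes. Tested genes were divided into bands of equal size at 43.8% and 53.3% GC. Of the 26 low-GC members 24 were below 0 with a median log2 fold change of -0.16, of the 30 in the middle band 24 with -0.11, and of the 22 high-GC members 13 with -0.01. The medians of all tested genes in the same bands were -0.11, -0.01 and 0.17. The members were therefore below the median of all genes in each band, by the least in the low band. Pearson's r between fold change and GC content was 0.36 over the 78 members (Spearman's rho 0.45) and 0.36 over 15874 tested genes (rho 0.47). Genes of 1 library share its preparation and are not independent replicates. Without SCC replicate 1 the members' r was 0.13 (rho 0.19).

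**Figure D3:**
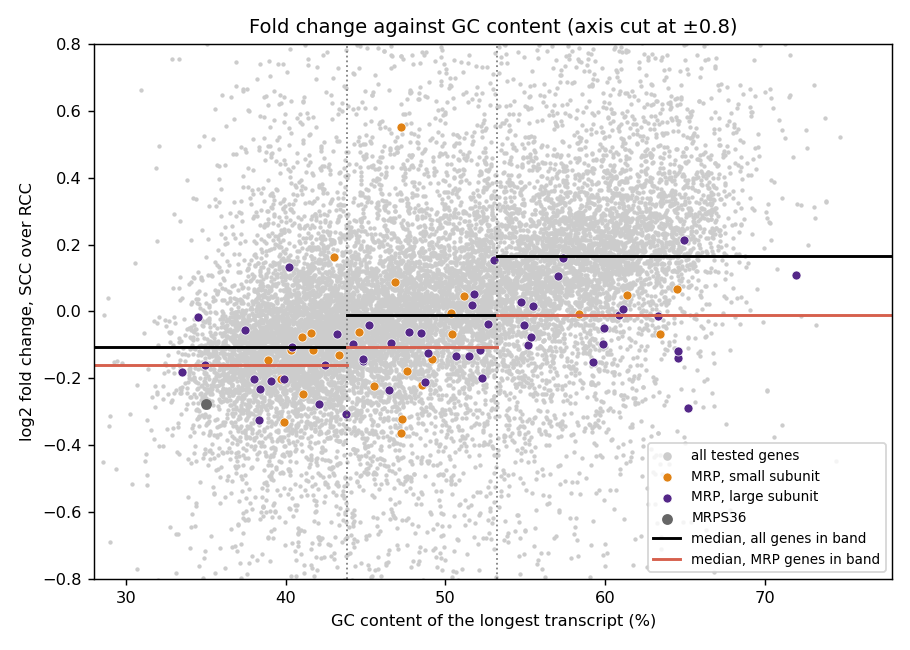
Log2 fold change, SCC over RCC (vertical axis, cut at 0.8 on either side), against the GC content of each gene's longest transcript (horizontal axis, %), with all tested genes in grey and MRP genes coloured by subunit. Dotted lines divide the bands at 43.8% and 53.3%, and in each band the median of the MRP genes lies below the median of all genes.

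SCC replicate 1 stood apart in this respect. In the low-GC band its median log2 deviation from the mean of the 6 libraries was -0.25 over the members and -0.18 over all genes, and in the high-GC band it was 0.00 over the members and 0.27 over all genes. Among the other 5 libraries the members' medians ran from -0.03 to 0.13 in the low band and from -0.08 to 0.06 in the high band. With an offset for GC content fitted in each library, the members' median was -0.10 and 65 of 78 were below 0, against 50.8% of all genes. The order of the bands was then turned round, with members' medians of -0.05, -0.10 and -0.18 from low to high GC. Pearson's r with GC content was then -0.45 over the members (Spearman's rho -0.43) and 0.02 over all tested genes. The offset thus left a trend of opposite sign among the members. That fit called 4 members lower, MRPS25, MRPL12, MRPL36 and MRPS26, where it called 1.54% of all genes lower, with log2 fold changes of -0.35, -0.37, -0.54 and -0.30 (reported fit: -0.36, -0.12, -0.29 and -0.07) and adjusted p-values (edgeR) of 0.010, 0.037, 0.038 and 0.019. It turned 9 members from above to below 0, among them MRPL4, MRPL41, MRPL43 and MRPS34, and 5 from below to above, among them MRPS30. MRPL36 was at 23.3, 24.1 and 28.9 CPM in SCC and 27.5, 33.1 and 32.7 in RCC, with overlap in 1 pair of libraries. MRPS26 was at 67.2, 56.0 and 55.6 CPM in SCC and 57.4, 60.5 and 69.8 in RCC, with overlapping groups. MRPL12, MRPL36 and MRPS26 were at 64.6%, 65.2% and 63.4% GC, and MRPS25 was at 47.2%. The part of GC content and of SCC replicate 1 in the members' differences was otherwise not tested.

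**Figure D4:**
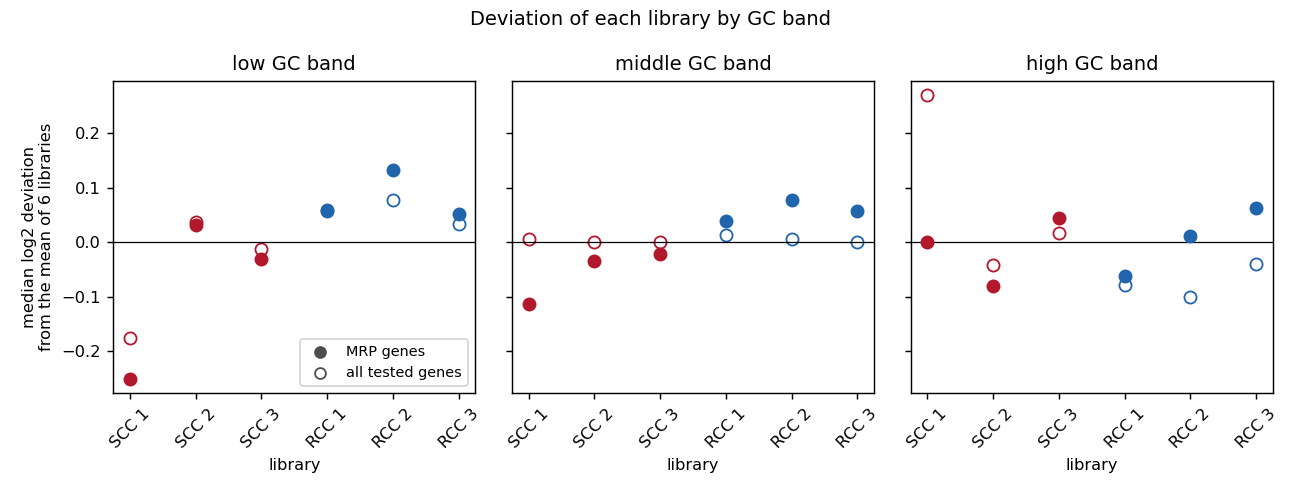
Median log2 deviation of each library from the mean of the 6 libraries (vertical axis) in the low, middle and high GC band, over MRP genes (filled) and all tested genes (open), with SCC in red and RCC in blue. SCC replicate 1 lies at -0.25 over the low-GC members, and in the high-GC band it lies at 0.27 over all genes and at 0.00 over the members.

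Across 17 ways of fitting the data without a replicate block, the median of the members stayed below that of all tested genes. It ran from -0.14 without SCC replicate 2 to -0.06 without SCC replicate 1, and 52 to 65 members were below 0. In each of these fits 0 members were called higher. Members were called lower in 5 of them: 4 with the GC offset, 2 (MRPL19 and MRPS25) with every gene of at least 1 count kept, where 0.838% of all genes were called lower, and 2 (the same genes) without SCC replicate 1, where 2.1% were. MRPS25 alone was called without SCC replicate 2, where 1.59% of all genes were called lower, and in DESeq2. Fits with a replicate block are given in the closing section. There the block with the GC offset called 9 members lower, and 431 of the 15881 tested genes.

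**Figure D5:**
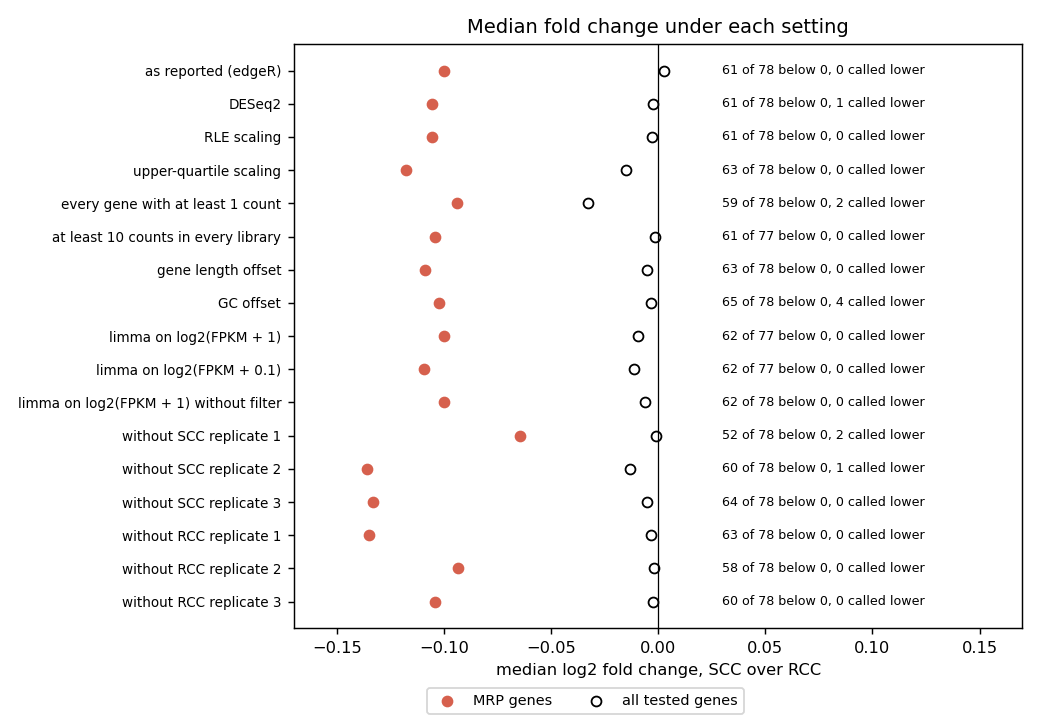
Median log2 fold change, SCC over RCC (horizontal axis), of the tested MRP genes (red) and of all tested genes (open) under the reported fit and 16 alternatives (vertical axis), with the number of members below 0 and called lower written beside each. The red points lie between -0.14 and -0.06 and to the left of the open points in every line. Fits with a replicate block are not shown.

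The rest of the mitochondrial translation machinery was read from lists written from general knowledge, and in each of them 0 genes were called in the reported fit (edgeR, adjusted p under 0.05). The 5 mitoribosome subunits with other names gave log2 fold changes of -0.15 for PTCD3, -0.13 for the GTP-binding DAP3, -0.09 for CHCHD1, 0.03 for AURKAIP1 and 0.01 for GADD45GIP1. PTCD3, DAP3 and CHCHD1 were at -0.08, -0.05 and -0.04 without SCC replicate 1. AURKAIP1 and GADD45GIP1 were at -0.30 and -0.17 with the GC offset, in which edgeR called AURKAIP1 lower with an adjusted p of 0.015. GADD45GIP1 was also at 0.00 under RLE and -0.01 under upper-quartile scaling. Of 29 genes for assembly of the mitoribosome, 18 were below 0 with a median of -0.06. Of the 29, 2 were higher and 4 were lower at an unadjusted p under 0.05, where 11.4% and 8.27% of all tested genes were. ERAL1, a GTPase chaperone of the small subunit rRNA, had 0.21, and NGRN, which acts on the large subunit rRNA, 0.29. MTERF3, MTG1, NDUFAB1 and GTPBP10, which act in assembly of the large subunit, had -0.31, -0.43, -0.27 and -0.21. NGRN was at 0.14, ERAL1 at 0.13, NDUFAB1 at -0.16 and GTPBP10 at -0.13 without SCC replicate 1. With the GC offset MTG1 was at -0.60 and was called lower (adjusted p 0.035, edgeR).

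Of 16 translation factors and mRNA-binding proteins of mitochondria, 13 were below 0 with a median of -0.13, which was -0.08 without SCC replicate 1. At an unadjusted p under 0.05, 5 were lower, where 8.27% of all tested genes were. SLIRP, which binds mitochondrial mRNA together with LRPPRC, was at 23.9, 40.3 and 38.0 CPM in SCC and 41.8, 45.2 and 53.8 in RCC. SCC replicate 1 was far below the other 5 libraries, and the log2 fold change of -0.46 ± 0.17 was -0.25 without it. LRPPRC had -0.17, the initiation factor MTIF2 -0.27, the elongation factor GFM1 -0.24 and OXA1L, which inserts the products into the inner membrane, -0.15. Without SCC replicate 1, LRPPRC was at -0.11, GFM1 at -0.16 and MTIF2 at -0.18 (adjusted p of MTIF2 0.063, edgeR). Without SCC replicate 2, MTIF2 was at -0.36 and was called lower (adjusted p 0.041, edgeR). In the reported fit the adjusted p-values of these 5 genes in edgeR's test ran from 0.144 to 0.221. Of 20 mitochondrial tRNA synthetases, 15 were below 0 with a median of -0.10, and 0 had an unadjusted p under 0.05. The smallest p among them was that of MARS2, at -0.21.

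The RNA components of the mitoribosome come from mitochondrial DNA. MT-RNR2, the large subunit rRNA (mitochondrial genome, 1671 to 3229), was at 2165, 1911 and 1904 CPM in SCC and 1543, 1258 and 1699.8 in RCC. All SCC libraries were higher. The log2 fold change was 0.41 ± 0.10 with an adjusted p of 0.069 in edgeR and 0.0077 in DESeq2, and without SCC replicate 1 it was 0.35 with an adjusted p of 0.0021 (edgeR). MT-RNR1, the small subunit rRNA, was at 617, 500 and 511 CPM in SCC and 622, 363 and 640 in RCC, and its fold change of 0.00 ± 0.17 was -0.22 without RCC replicate 2 and 0.00 to -0.02 under the other scalings. Whether rRNA was depleted is not given in the sources used here, nuclear copies of these genes could share reads, and a difference between the rRNAs and the protein genes was not tested.

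Of the 5 genes for transcription of mitochondrial DNA, 4 were below 0. POLRMT, the mitochondrial RNA polymerase, was above at 0.29 ± 0.13, which was 0.095 without SCC replicate 1. With the GC offset all 5 were below 0. Their median in the reported fit was -0.16, with TFAM, the packaging and initiation factor, at -0.19 (adjusted p 0.241, edgeR). Both the median and TFAM were at -0.10 without SCC replicate 1. Of 10 nuclear regulators linked to such genes, 6 were above 0 and 4 below, where 49.5% of all tested genes were below. Their log2 fold changes ran from -0.15 to 0.27. MYC was at 163, 138 and 139.96 CPM in SCC and 125, 118 and 123 in RCC, with all SCC values higher. Its log2 fold change was 0.27 ± 0.08 with an adjusted p of 0.105 (edgeR), and 0.19 with 0.019 without SCC replicate 1. PPRC1, a coactivator, had 0.27, and 0.18 with an adjusted p of 0.028 without SCC replicate 1 (edgeR). NRF1 had 0.16 and YY1 0.15, the latter 0.08 without SCC replicate 1. GABPA, at -0.03, was at 0.15 without SCC replicate 1.

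The cytosolic ribosomal protein genes, whose products form the other ribosome of the cell, showed the same direction. Of 87 such genes 83 were tested, 0 were called, and 74 (89.2%) were below 0 with a median of -0.15, which was -0.08 without SCC replicate 1. At an unadjusted p under 0.05, 31 were lower, where 8.27% of all tested genes were. A difference between the 2 ribosomes' genes was not tested.

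Among markers of the cell line, the mesenchymal genes VIM, CD44 and AXL summed to 1880 to 2003 CPM in SCC and 1802 to 1896 in RCC, and the receptor genes ESR1 and PGR and the epithelial CDH1 had means under 0.5 CPM in both groups. ERBB2 had means of 85.8 CPM (SCC) and 74.9 CPM (RCC). The 7 leukocyte and red cell markers summed to 0.665 to 3.04 CPM in SCC and 0.669 to 1.06 in RCC, and the 6 fibroblast and endothelial markers to 26.5 to 31.8 and 21.8 to 24.6. Their part in the MRP values was not tested.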

How the data were processed

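The deposited tables give, for 6 libraries, raw counts and FPKM of each gene, with a gene length column made by the authors. Per the submitters' processing notes, HISAT2 2.0.5 and featureCounts 1.5.0-p3 were used. The genome build, annotation, read filters and use of strand are not given in the sources used here. All 58735 rows had GENCODE 29 positions on GRCh38. The deposited FPKM equalled the count divided by gene length and by 1 constant per library, within 0.1% for 100% of genes. The smallest single-gene p an exact permutation of 3 against 3 libraries allows is 0.1, so single values rest on the fit across all genes. Counts were filtered with filterByExpr (minimum count 10), scaled by TMM and tested with edgeR 4.0.16 in R 4.3.3 on group alone, two-sided, with Benjamini-Hochberg adjustment over 15881 genes. Fold changes are fitted log2 values of SCC over RCC, and the SE was derived from the fold change and its F statistic. The code was tested on simulated data. Alternatives used DESeq2 1.42.0, limma 3.58.1 on log2(FPKM + 1) and log2(FPKM + 0.1), other scalings and filters, offsets for GC content and gene length (lowess span 0.3), a replicate block, and each library left out. The members and gene lists were chosen with earlier results of these data known. Named members were the 5 highest and 5 lowest by fold change and by FPKM, and 16 of known role. In each pathway list, the gene with the smallest p and a few fixed genes were named. MRPL36, MRPL39, MRPL43, MRPS15, MRPS26, MRPS35, SLIRP, LRPPRC, OXA1L, GFM1, ERAL1, NGRN, MTG1, NDUFAB1, GTPBP10, PPRC1, POLRMT, YY1 and ERBB2 were named after their values were seen. Promoter windows came from RefSeq (GRCh38.p14).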

Additional observations from a re-analysis of the deposited data

How the results depend on the processing

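Depth limits the low members most, MRPS24 above all. The count of members called lower was 0 as reported, 1 with DESeq2, 2 with every gene of at least 1 count kept, 4 with the GC offset, and 0 to 2 with 1 library left out (MRPL19 and MRPS25 without SCC replicate 1, MRPS25 without SCC replicate 2). The labels do not say whether the replicate numbers pair the samples. Deviations of same-numbered libraries from their group means correlated at -0.01, 0.02 and -0.08. That check used no GC offset and cannot decide whether the samples were paired. The replicate block gave 1 member (MRPS25), where 106 of the 15881 tested genes were called lower. The block with the GC offset gave 9 members, where 431 of all tested genes were called lower. With the block and the gene length offset 1 member was called, and the count over all genes is not given here. Over all genes, 268 higher and 60 lower calls became 480 and 170 with DESeq2, 995 and 315 with every gene kept, 523 and 245 with the GC offset, 350 and 106 with the block and 621 and 431 with the block and the GC offset. With limma they became 130 and 36 on log2(FPKM + 1), 117 and 34 on log2(FPKM + 0.1), and 48 and 1 on log2(FPKM + 1) without a filter. Leaving out 1 library gave 99 to 642 higher and 8 to 343 lower calls, and a small subunit median of -0.15 to -0.071. The cause of these changes was not tested.

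Of the 78 members, the GC offset turned 9 below and 5 above 0, and leaving out SCC replicate 1 turned 4 below and 13 above. Among the genes named in the text other than POLRMT and YY1, fitted log2 fold changes turned sign as follows. With the GC offset, and then with the replicate block and the GC offset together, they were -0.052 and -0.053 for MRPL4, -0.28 and -0.29 for MRPL41, -0.0148 and -0.0155 for MRPL43, -0.18 and -0.19 for MRPS34, 0.16 and 0.16 for MRPS30, -0.30 and -0.29 for AURKAIP1, -0.17 and -0.16 for GADD45GIP1, and 0.11 and 0.10 for GABPA. With 1 library left out at a time they ran from -0.022 (without SCC replicate 1) to 0.12 for MRPS34, -0.084 to 0.031 (without RCC replicate 3) for MRPS12, -0.070 to 0.052 (without SCC replicate 1) for MRPS30, -0.013 (without SCC replicate 1) to 0.086 for MRPS18B, and -0.16 to 0.0075 (without RCC replicate 3) for MRPS26. For genes outside the family they ran from -0.11 to 0.10 for AURKAIP1, -0.10 to 0.11 for GADD45GIP1, -0.22 to 0.13 for MT-RNR1 and -0.15 to 0.15 for GABPA. MRPS12 was at 5.21e-05 with every gene kept. GADD45GIP1 was at -0.000957 with DESeq2, -0.000456 with RLE, -0.012 with upper-quartile scaling and -0.0049 with the length offset. MT-RNR1 was at -0.00357 with DESeq2, -0.00327 with RLE, -0.017 with upper-quartile scaling and -0.000983 with at least 10 counts in every library.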
